A study of Homo sapiens with 4 samples.

Results

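The heat shock proteins and their J-domain (DNAJ) partners were described in T47D cells, an established line from a human breast cancer that carries the progesterone receptor (PR). Members were chosen by gene symbol alone, as the symbols of the HSP90, HSPA, HSPB, HSPD, HSPE, HSPH, DNAJA, DNAJB and DNAJC series, which gave 86 of the 23287 gene symbols listed. Their expression was measured by RNA-seq in cells given 10 nM of R5020, a synthetic progestin, for 3 h and in cells given the vehicle, ethanol (EtOH), for 3 h, and PR binding sites were measured by ChIP-seq, which sequences the DNA bound by a protein, after 1 h with 10 nM R5020. There was 1 library for each of these 3 treatments, so no difference below has a replicate check, no p-value is given and every comparison of R5020 with EtOH compares 1 library with 1 library. In such bulk libraries, fewer cells with a transcript and less of it in each cell cannot be told apart.

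Molecular chaperones hold and fold other proteins. HSP70 proteins (the HSPA genes) bind short exposed stretches of a client in a cycle driven by ATP. J-domain proteins (DNAJA, DNAJB and DNAJC) bring clients to HSP70 and speed up its ATP hydrolysis, and nucleotide exchange factors (HSPH, BAG and GRPE proteins) release the client again. HSP90 proteins take over late folding steps and keep steroid receptors, PR among them, able to bind hormone. HSPD and HSPE form the mitochondrial folding chamber, and the small heat shock proteins (HSPB) keep unfolding proteins from aggregating. Many of these genes are induced by heat shock factors, which bind repeats of the unit GAA and its complement TTC, called heat shock elements.

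Expression is given as FPKM, fragments scaled to transcript length and library size, summed over the transcripts of a gene. Changes are log2 ratios of R5020 to EtOH after 1 was added to each FPKM, which shrinks the ratios of weakly expressed genes, and 1.5-fold (0.58 on this scale) is the threshold for calling a gene higher or lower. The coverage in the files corresponds to 35151493 reads of 50 nt in EtOH and 36203604 in R5020. Of the 86 members, 59 reached an FPKM of 1 in at least 1 library and were retained, 27 were not, and 9 of these 27 were listed at 0 in both libraries. Among the members are 74 protein-coding genes, 9 pseudogenes and 3 non-coding genes, and *HSPB11*, which the rule takes in by its symbol, now bears the name *IFT25* as a part of the intraflagellar transport machinery. Of the luminal breast markers, *KRT19*, *GATA3*, *FOXA1*, *ESR1* and *PGR* were present in both libraries, with *GATA3* at 253 in EtOH and 126 in R5020 and *FOXA1* at 64.3 and 14.7, while *KRT8* and *KRT18* were listed at 0 in EtOH with a failed estimate. The 5 luminal markers estimated in both libraries added up to 967 in EtOH and 644 in R5020, and 4 of them were lower in R5020. *KRT8* and *KRT18* were at 285 and 174 in R5020, which takes the sum of all 7 to 1104 there. Their part in the results below was not tested. The 8 markers of other cell types summed to 5.40 and 3.91, nearly all of it from *COL1A1*, and *COL1A2* was listed at 0 in both. All 86 members had a status of OK in both libraries.

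Most of the chaperones stood at similar levels with and without R5020. Of the 59 retained members, 5 were higher in R5020 (8.47%, against 7.67% of all 11018 retained genes), 2 were lower (3.39%, against 4.14%) and 52 differed by less than 1.5-fold. The 5 higher members were *DNAJB4*, *DNAJA2*, *DNAJB6*, *HSPA2* and *DNAJC3*, of which 4 encode J-domain proteins, as do 36 of the 59 retained members, and the 2 lower members were the paired genes *HSPA1A* and *HSPA1B* of inducible HSP70. Of the 5, *HSPA2* alone reached the FPKM minimum of 1 only in R5020, the library in which it was higher. The median log2 change of the retained members was −0.02 and that of all retained genes 0.01. A change within 0.3 on the log2 scale was found for 42 of the 59 members (71.2%) and for 69.5% of all retained genes. The shares of higher and of lower members were thus close to the background of the libraries.

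**Figure D1:**
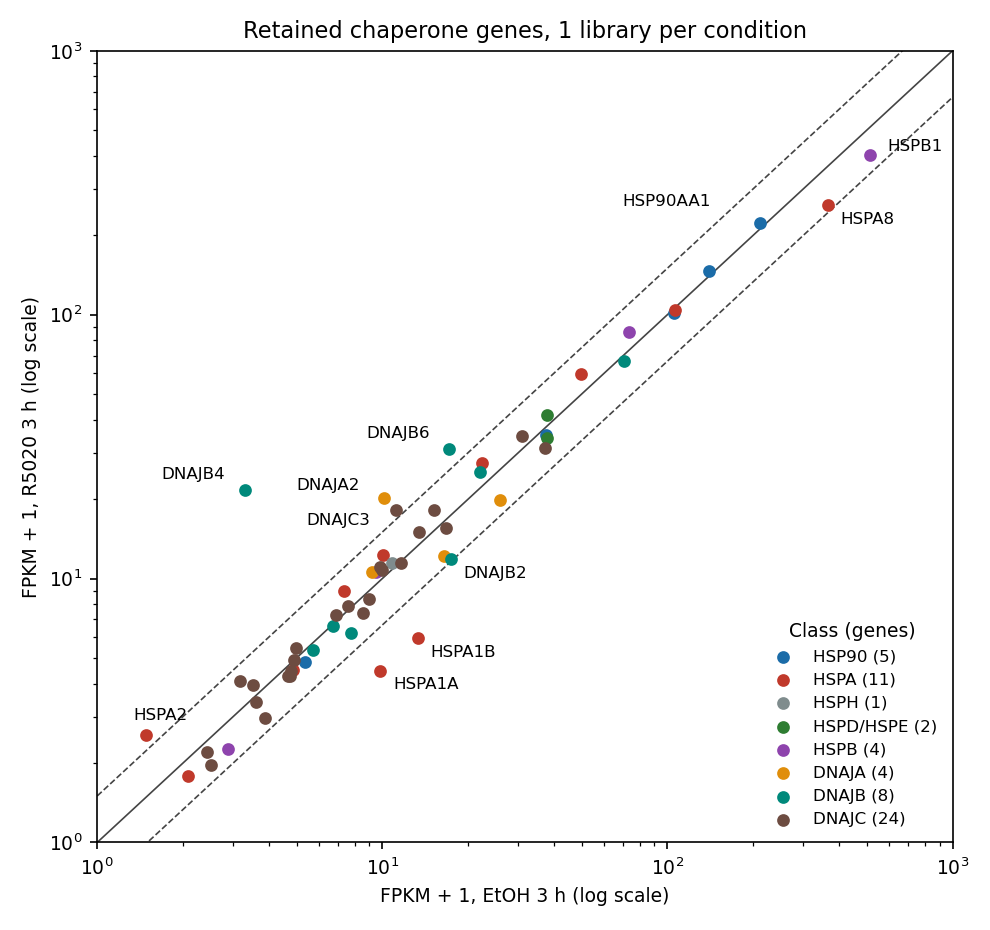
FPKM + 1 of the 59 retained chaperone genes in EtOH (x axis) and R5020 (y axis), both on log scales, with 1 point per gene coloured by class, the line of equal values and dashed lines at 1.5-fold. DNAJB4 lies far above the upper line, HSPA1A and HSPA1B lie below the lower one, and the most highly expressed members, HSPB1 and HSPA8, lie between the equal line and the lower dashed line.

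As a whole, the 86 members added up to FPKM totals of 2168 (EtOH) and 2012 (R5020). They held 1.48% of the FPKM of all transcripts of 200 nt or more in EtOH and 1.36% in R5020. Small heat shock proteins and HSP70 proteins were the largest of the 8 classes in EtOH, with summed FPKM of 597 and 583, followed by HSP90 with 495. That order holds for the FPKM only, since at the midpoints of the deposited intervals HSP90 came to 714, HSP70 to 662 and the small heat shock proteins to 202 in EtOH. Both of the largest classes were lower in R5020, at 498 for the small heat shock proteins (log2 change −0.26) and 481 for HSP70 (−0.28). HSP90 stood at 506 in R5020 (0.03). None of the class sums passed 1.5-fold. The 49 genes with DNAJ symbols include pseudogenes and non-coding genes. Their sum differed the other way from that of HSP70, from 410.03 to 443 (0.11). The FPKM of these DNAJ genes was thus 0.703 times that of the HSP70 genes in EtOH and 0.920 times in R5020. These sums rest on few genes.

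**Figure D2:**
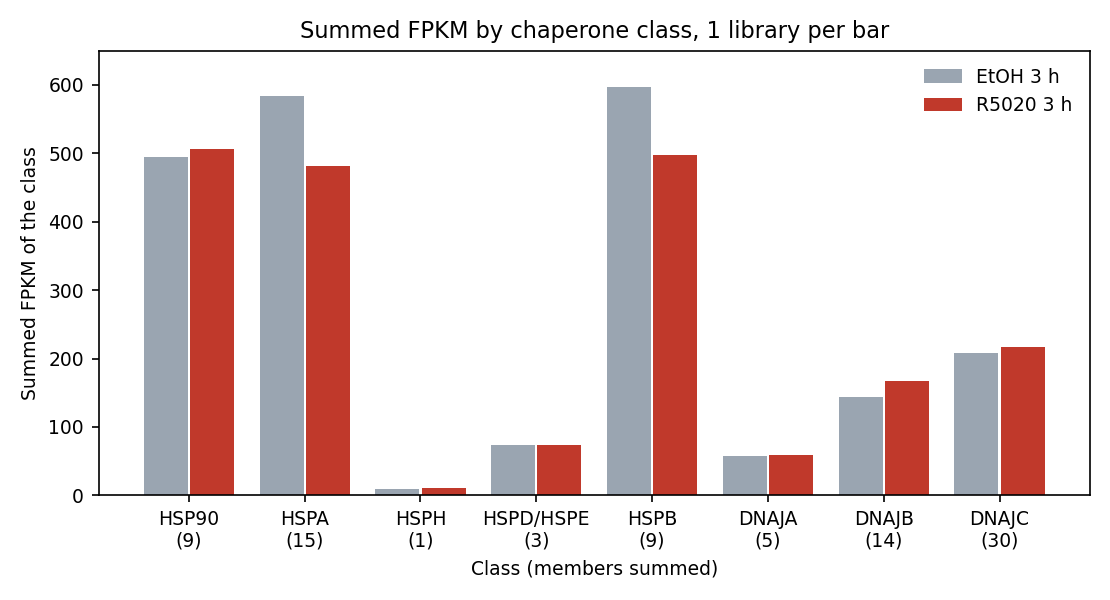
Summed FPKM (y axis, from 0) of each chaperone class in EtOH (grey) and R5020 (red), with the number of members summed below each class name and 1 library per bar. The HSPA and HSPB bars are lower in R5020 (583 to 481 and 597 to 498), the DNAJB bars higher (144 to 168), and the other classes nearly level.

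The changes of HSP70 genes spread from −1.17 to 0.79 on the log2 scale. Cytosolic HSP70 is made from a constitutive gene, *HSPA8*, and from the heat-inducible pair *HSPA1A* and *HSPA1B*, which lie side by side in the major histocompatibility region of chromosome 6. The FPKM of *HSPA8* was 366 with EtOH and 259 with R5020 (log2 change −0.49), below the threshold. It held 62.7% of the summed FPKM of the class in EtOH, and its difference came to 104% of the difference of the class, so that without it the class sum changed by 0.03. *HSPA1B* stood at 12.3 in EtOH and 4.93 in R5020 (−1.17). *HSPA1A* was at 8.85 and 3.48 (−1.14), and the pair together at 21.2 and 8.41 (−1.24). Both genes of the pair were thus lower in R5020 to a like extent. They rank 114 and 117 from the bottom among the log2 changes of the 11018 retained genes.

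Both values may rest on a small part of the sequence of each gene. The authors kept no read that aligned to more than 1 place. Only 24.9% of the 50-nt windows of the *HSPA1A* exons and 28.4% of those of *HSPA1B* occur once on the hg19 chromosomes. Of the *HSPA1A* windows, 75.1% are also found in *HSPA1B*. Each window stands for a single read, so the count does not show where paired reads could be placed. Coverage over the 2 genes corresponded to 2017 reads for *HSPA1A* and 2855 for *HSPA1B* in EtOH, and to 767 and 1111 in R5020. Both are also listed on 4 haplotype contigs each, at 0 on every one, and the count of windows left these contigs out. Of the *HSPA8* windows 76.9% are unique, and 41 of the 59 retained members have more than 95% unique windows. *HSPA6*, a strictly heat-inducible gene singled out for that, was barely detected, at 0.00978 in EtOH and 0.162 in R5020.

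The other HSP70 genes showed no common direction. *HSPA2*, a member best known from the testis, was at 0.487 in EtOH and 1.56 in R5020 (0.79), a rise that rests on coverage worth 118 and 399 reads. *HSPA5* (BiP), the HSP70 of the endoplasmic reticulum, was at 105 and 103 (−0.03). The mitochondrial HSP70 gene *HSPA9* was at 48.7 and 58.7 (0.27). Of the HSP70 relatives that serve as exchange factors, *HSPH1* was at 9.77 and 10.4 (0.09). *HSPA2* was therefore the only HSP70 gene above the threshold, at the lowest EtOH level of the 7 changed members. Its retention rests on R5020 alone, the library in which it was higher.

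The sequences before the start of 3 of these genes are shown because heat shock elements are the best known control of the class. Promoters of 250 bases before the start were found in the RefSeq table (GRCh38.p14) for 52 of the 59 retained members. The 3-unit element GAANNTTCNNGAA or its complement TTCNNGAANNTTC was found in 2 of the 52, *HSPA8* and *DNAJB6*, and in 0.441% of all 35116 promoters. The shorter GAANNTTC or TTCNNGAA, which every 3-unit element contains, was found in 8 of the 52 (15.4%) and in 11.6% of all. Capitals mark the 3-unit element in *HSPA8* and the 2-unit element in the pair. The *HSPA8* stretch is chr11:123062159-123062386 on the minus strand, from 250 to 23 bases before the start, the *HSPA1A* stretch chr6:31815417-31815464 and the *HSPA1B* stretch chr6:31827613-31827660, both on the plus strand.
HSPA8: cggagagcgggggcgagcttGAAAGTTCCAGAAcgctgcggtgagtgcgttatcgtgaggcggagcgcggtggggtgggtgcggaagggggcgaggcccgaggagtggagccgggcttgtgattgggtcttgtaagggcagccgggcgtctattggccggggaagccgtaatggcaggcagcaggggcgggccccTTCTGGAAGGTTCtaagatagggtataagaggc
HSPA1A: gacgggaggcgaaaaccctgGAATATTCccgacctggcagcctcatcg
HSPA1B: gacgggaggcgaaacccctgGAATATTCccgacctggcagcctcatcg
The *HSPA8* stretch holds 2 such 3-unit elements, and the stretches of the pair hold the same 2-unit element in nearly the same surroundings. A match is a string of letters and not a site in use. Only exact matches in the 250 bases were counted, so the lack of a match does not show that a gene has no heat shock element.

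The sum of the small heat shock proteins was mostly that of a single gene. *HSPB1* (HSP27), the member with the highest FPKM as deposited, was at 513 in EtOH and 402 in R5020 (log2 change −0.35). This gene held 86.0% of the class sum in EtOH, and without it the class changed by 0.20 in the other direction. Most of that remainder was *HSPB11* (*IFT25*), which held 12.1% of the class sum in EtOH and 17.0% in R5020. *HSPB11* (*IFT25*) was at 72.1 and 84.6 (0.23) and *HSPB8*, which works with the exchange factor *BAG3* in clearing misfolded proteins, at 8.51 and 9.59 (0.16). The read-through transcript *HSPB2-C11orf52* was at 1.87 and 1.25 (−0.35), while *HSPB2* itself, singled out beside it, was listed at 0 in both. No small heat shock protein gene passed the threshold. The FPKM of *HSPB1* lies far above its own deposited interval, which is 133 to 144 in EtOH and 107 to 115 in R5020. An FPKM outside its interval in 1 library or the other was found for 40 of the 65 retained member transcripts, and the FPKM itself is used here. At the midpoints of the intervals *HSPB1* stands at 138 in EtOH, below *HSPA8* at 372, *HSP90AB1* at 276 and *HSP90AA1* at 213, so the order of the levels depends on which of the deposited values is read. The *HSPB1* promoter stretch (GRCh38.p14, chr7:76302471-76302518, plus strand) is given with its 2-unit element in capitals.
HSPB1: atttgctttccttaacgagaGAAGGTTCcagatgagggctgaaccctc

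HSP90 genes were at high and nearly level FPKM. Their sum of 495 and 506 over 9 members is made up mainly of *HSP90AA1* (42.4% of the EtOH sum), *HSP90B1* and *HSP90AB1*, whose log2 changes were 0.08, 0.06 and −0.06. *HSP90AA1* is the heat-inducible and *HSP90AB1* the constitutive cytosolic form, and *HSP90B1* (GRP94) is the form of the endoplasmic reticulum. *HSP90AA1* and *HSP90AB1* have 77.2% and 78.4% unique windows. The pseudogene *HSP90AB2P*, singled out after its values were seen, was listed at 36.4 in EtOH and 34.1 in R5020 (−0.09). All 5 retained HSP90 members, pseudogenes included, lay between −0.16 and 0.08. The lower end is that of the pseudogene *HSP90AB3P*, singled out for this, and the coding genes are those given above. The mitochondrial chamber genes *HSPD1* (36.7 and 40.7, log2 change 0.14) and *HSPE1* (36.8 and 33.1, −0.15) differed with opposite sign within 1.5-fold, and their sum of 73.5 and 73.8 hardly differed.

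J-domain proteins made up 36 of the 59 retained members (61.0%). Of these 36, 4 were higher (11.1%, beside 7.67% of all retained genes) and none was lower. The largest difference was that of *DNAJB4* (HLJ1), a cytosolic partner of HSP70. Its FPKM was 2.29 with EtOH and 20.7 with R5020 (log2 change 2.73, or 9.08-fold without the pseudocount), with coverage worth 474 and 4180 reads. It ranked 40 from the top of the 11018 retained genes and went from 1.59% to 12.4% of the FPKM of the DNAJB class. *DNAJB6*, which keeps aggregation-prone proteins soluble, was at 16.2 and 30.0 (0.85). The class sum went from 144 to 168 (0.22), and without *DNAJB4* and *DNAJB6* the difference was −8.27 FPKM. The other 6 retained DNAJB genes were all within 1.5-fold. *DNAJB11*, a BiP partner in the endoplasmic reticulum, was at 69.6 and 65.5 (−0.09). *DNAJB1* (HSP40), the main heat-inducible partner of HSP70, was at 20.9 and 24.3 (0.21). *DNAJB2*, a client-sorting J protein with ubiquitin-binding motifs, was at 16.4 and 10.9 (−0.55), just inside the threshold, and *DNAJB12*, of the endoplasmic reticulum membrane, at 4.73 and 4.37 (−0.09).

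The *DNAJB6* promoter stretch (GRCh38.p14, chr7:157336853-157336905, plus strand) is shown because *DNAJB6* was the only changed member with a 3-unit heat shock element, given in capitals, before its start.
DNAJB6: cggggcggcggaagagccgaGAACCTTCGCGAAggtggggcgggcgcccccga
*DNAJB6* and *HSPA8* both carry a 3-unit element. Their log2 changes were 0.85 and −0.49, the latter within 1.5-fold, and a part of the element in either was not tested.

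Among the DNAJA genes, which are the closest relatives of the bacterial DnaJ, 1 was higher. *DNAJA2* was at 9.17 in EtOH and 19.1 in R5020 (log2 change 0.98). *DNAJA1* was at 24.9 and 18.8 (−0.39) and *DNAJA4* at 15.4 and 11.2 (−0.43). The mitochondrial *DNAJA3* (Tid1) was at 8.17 and 9.55 (0.20). The cytosolic genes of the class thus differed in sign, and the class sum of 57.6 and 58.6 (0.02) does not show it.

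DNAJC is a varied class of specialised J proteins, and 23 of its 24 retained genes differed by less than 1.5-fold. The exception was *DNAJC3* (p58IPK), a luminal protein of the endoplasmic reticulum, at 10.1 in EtOH and 17.2 in R5020 (log2 change 0.71). The other 23 lay between −0.39 and 0.37. *DNAJC19*, of the mitochondrial import motor, was at 36.2 and 30.1 (−0.26), *DNAJC7*, which binds both HSP70 and HSP90, at 30.0 and 33.7 (0.16), and the splicing-associated *DNAJC8* at 15.7 and 14.6 (−0.10). *DNAJC13*, an endosomal J protein, was at 10.6 and 10.5 (−0.02), and the mitochondrial *DNAJC15* at 3.91 and 3.92 (0.00). The class sum went from 209 to 216 (0.05).

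The transcripts of a gene did not always change alike. Of the 59 retained members, 7 had more than 1 retained transcript. For *DNAJB6*, the transcript of the short isoform (NM_005494) was at 10.9 in EtOH and 23.2 in R5020 (log2 change 1.03), whereas that of the long isoform (NM_058246), which is the nuclear one, was at 5.31 and 6.78 (0.30). The difference of *DNAJB6* was therefore mainly in its short form. For *DNAJC19*, the coding transcript NM_145261 was at 23.7 and 30.1 (0.34), and the non-coding NR_033721 was at 12.6 in EtOH and listed at 0 in R5020. The change of the summed *DNAJC19* value was thus opposite in sign to that of its coding transcript. *DNAJA3* transcript NM_005147 was at 2.03 and 3.55 (0.59), and *DNAJA4* transcript NM_018602 at 4.07 and 2.13 (−0.70), each past the threshold while its gene was not. The split of reads between transcripts of 1 gene is an estimate of Cufflinks, and its error was not tested.

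**Figure D3:**
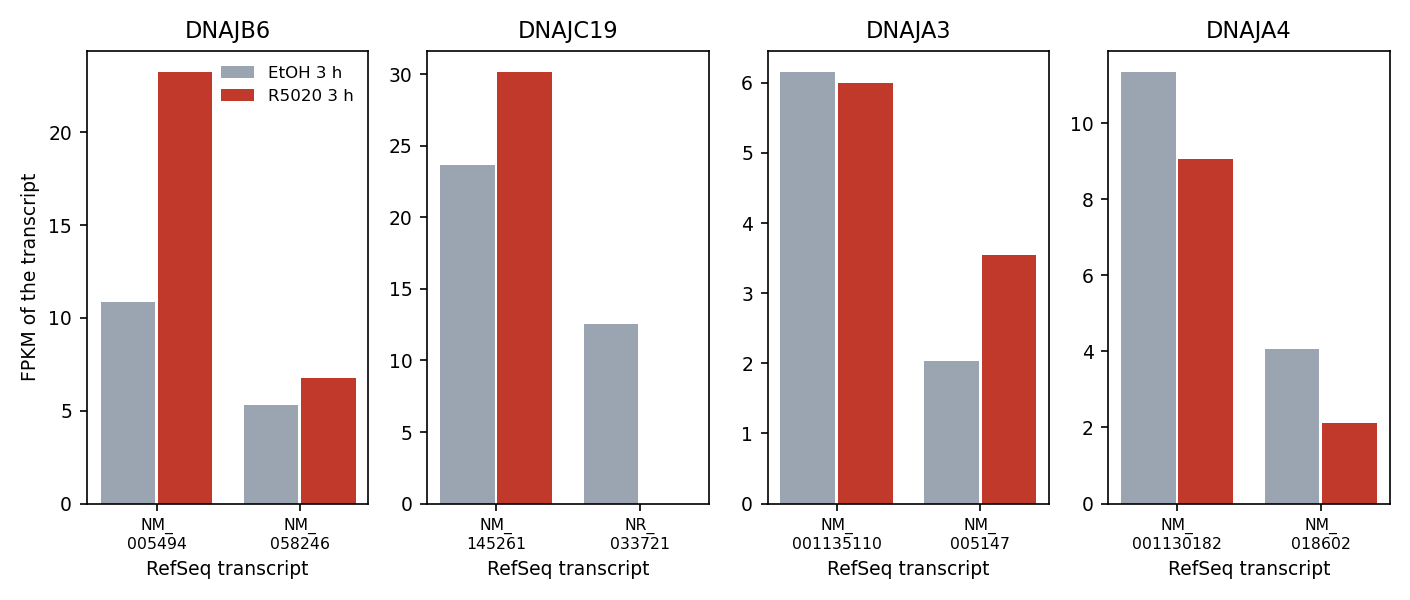
FPKM (y axes, each from 0) of the retained transcripts of DNAJB6, DNAJC19, DNAJA3 and DNAJA4 in EtOH (grey) and R5020 (red), with 1 library per bar and the RefSeq identifier on the x axis. The short DNAJB6 transcript NM_005494 goes from 10.9 to 23.2, and the non-coding DNAJC19 transcript NR_033721 has no red bar because it is listed at 0 in R5020.

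Partner genes of the chaperones were read from lists of known members. Among 16 retained HSP90 co-chaperones, only *FKBP5*, an immunophilin of steroid receptor complexes, was higher, with 15.9 in EtOH and 86.6 in R5020 (log2 change 2.38), and none was lower. The median of that list was −0.02, with *PTGES3* (p23) at 113 and 109 and *FKBP4* at 25.0 and 24.1. Of 12 retained HSP70 exchange factors and ubiquitin co-chaperones, 4 were higher and none lower, and the list had a median of 0.05. *BAG3* was at 8.97 and 20.3 (1.10), *BAG5* at 12.9 and 24.4 (0.87), and the mitochondrial *GRPEL1* and *GRPEL2* at 8.17 and 17.9 (1.04) and at 6.66 and 11.2 (0.67). All 4 release nucleotide from HSP70 proteins, *GRPEL1* and *GRPEL2* from *HSPA9*. None of the 5 heat shock factors and their binding proteins passed the threshold, and *HSF1* was at 4.90 and 5.12 (0.05). Of 3 steroid receptors that HSP90 serves, *PGR* (23.7 and 15.3, log2 change −0.60) and *ESR1* (17.2 and 10.9, −0.61) were lower, and *NR3C1* was at 2.41 and 1.94 (−0.21). These counts stand beside 7.67% higher and 4.14% lower among all retained genes, and no list was tested against them.

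**Figure D4:**
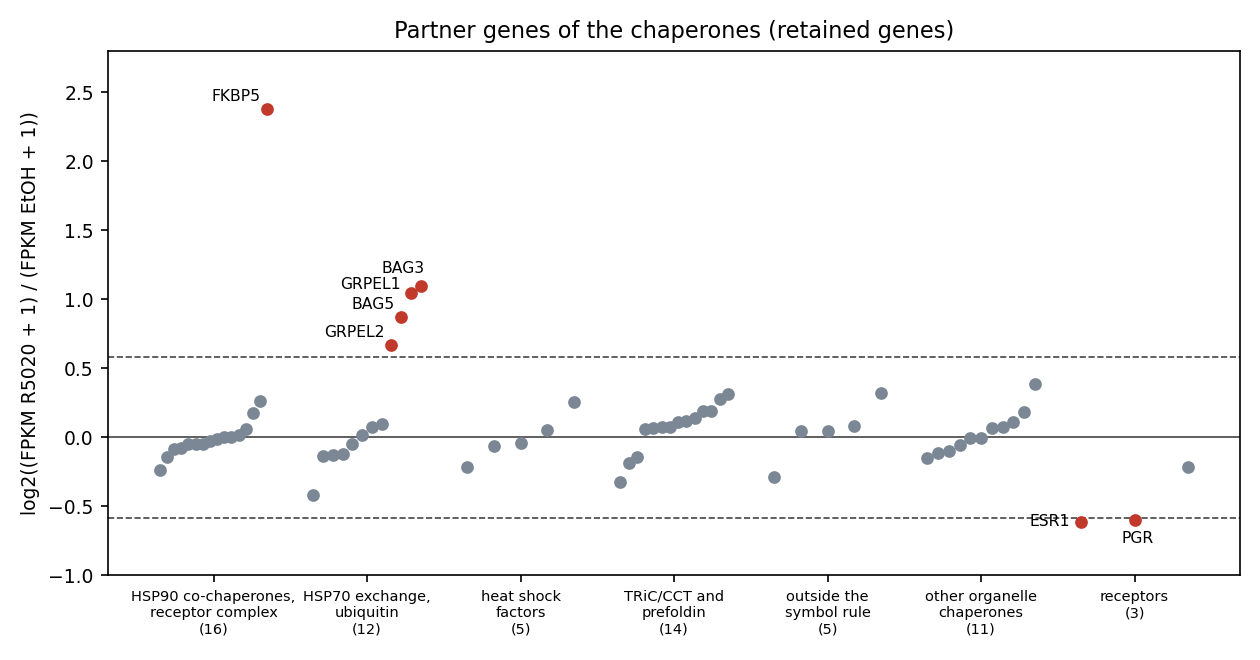
Log2 change on the FPKM + 1 scale (y axis) of the retained genes in 7 lists of chaperone partners (x axis, number of genes below each name), with red points past 1.5-fold and dashed lines at that threshold. Red points above the upper line are FKBP5, BAG3, BAG5, GRPEL1 and GRPEL2, and those below the lower line are PGR and ESR1.

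PR binding sites within 50 kb were about as frequent for the chaperone genes as for other expressed genes, and sites inside the locus were found for fewer of them. Of the 59 retained members, 30 had a site within 50 kb of their locus (50.8%, against 52.7% of all retained genes), measured from the nearest edge of the site to the extent of the transcripts. A site lay inside the locus of 7 members (11.9%, against 22.5% of all retained genes). The median span of the members was 18.4 kb and that of all retained genes 26.8 kb, and neither difference in share was tested. The 7 members were *DNAJA3*, *DNAJB12*, *DNAJC13*, *DNAJC15*, *HSP90AA1*, *HSPA9* and *HSPB2-C11orf52*, and none of them passed 1.5-fold. In total, 63 of the 11181 sites lay within 50 kb of a member. Their midpoints fell in introns of protein-coding genes for 23, in exons for 19, within 1 kb before a start for 3 and between genes for 18, and 11 were assigned to the member itself. Scores, which MACS derives from the p-value of a site and which are larger for smaller p-values, were between 50.1 and 147 with a median of 71.6 near members, and the median of all sites was 74.5.

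None of the 7 changed members had a PR binding site within 50 kb. Among all 1301 retained genes past 1.5-fold the share with a site was 61.3%, and among the 52 members within 1.5-fold it was 57.7%. The nearest site was 74.6 kb from *DNAJA2*, 113 kb from *HSPA2*, 142 kb from *DNAJB6*, 376 kb from *DNAJC3* and 1266 kb from *DNAJB4*. *HSPA1A* and *HSPA1B* were 1816 and 1804 kb from the nearest site. No site is listed on chromosome 6 (hg19) between positions 28255567 and 33602054, a stretch of 5.35 Mb with 95 retained genes, 92 of which are also listed on haplotype contigs. The distances of the pair reach to the end of that stretch, and why no site is listed in it was not tested. Apart from the pair, 5 changed members remain. Site density also differed between chromosomes, from 0.560 per Mb on X to 11.6 on 17, and was 0.808 on chromosome 13 (*DNAJC3*), 3.49 on 1 (*DNAJB4*), 3.90 on 7 (*DNAJB6*), 4.97 on 14 (*HSPA2*) and 7.78 on 16 (*DNAJA2*).

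**Figure D5:**
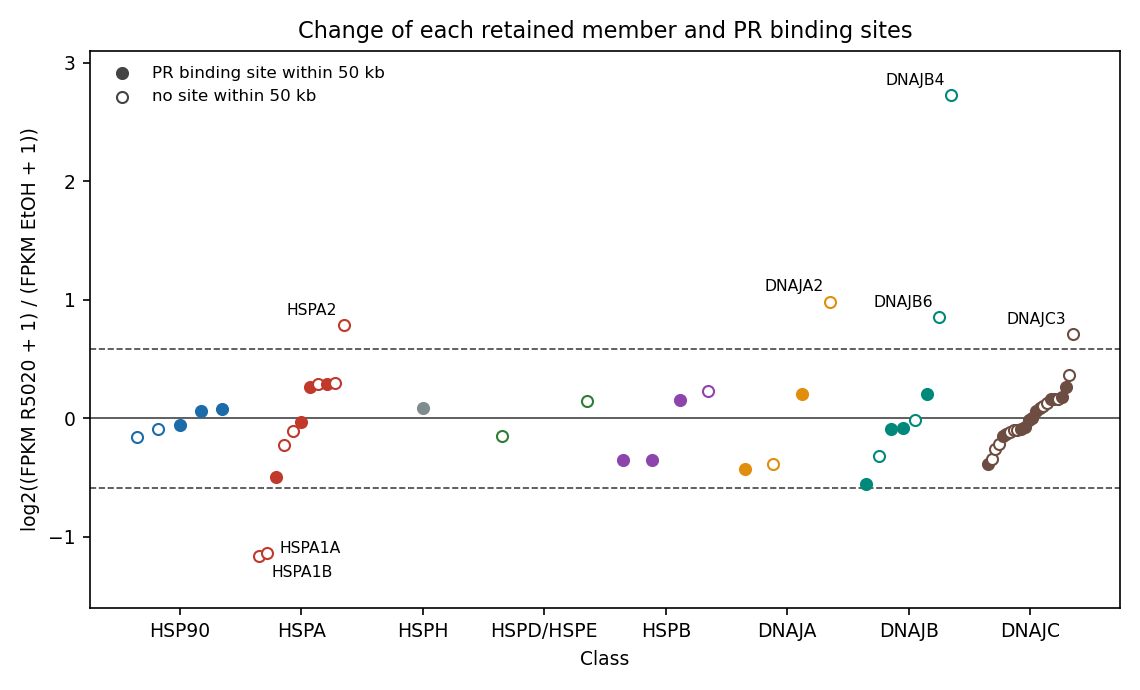
Log2 change on the FPKM + 1 scale (y axis) of the 59 retained members by class (x axis), with filled points for members that have a PR binding site within 50 kb, open points for those that have none, and dashed lines at 1.5-fold. All 7 points outside the dashed lines are open, and 30 of the 52 points between them are filled.

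Some of the most expressed chaperones had a site close to their start and others did not. The nearest site lay 9.23 kb from the locus of *HSP90B1*, 11.1 kb from that of *HSPA5*, 31.0 kb from *DNAJB11* and 57.2 kb from *HSPB11*. *HSP90AA1* had its nearest site in an intron. A site lay within 5 kb of 15 of the 59 retained members, and the share of all retained genes at that distance was not counted. The site near *HSPA8* lay 343 bp from the locus (score 76.1) and that near *HSP90AB1* 468 bp from it (58.8). A site overlapped the start of *HSPA9* (76.9), and another lay 2487 bp before *HSPB1* (109). For *HSPA13*, an HSP70 relative of the endoplasmic reticulum with FPKM values of 6.34 (EtOH) and 7.95 (R5020) and singled out for this site, the distance was 60 bp (66.1). *DNAJC4*, singled out for its sites, had the most, 11 within 50 kb, in a gene-dense stretch of chromosome 11 that also holds the start of *STIP1*, the adaptor between HSP70 and HSP90. *DNAJC4* itself was at 6.56 and 6.87. The highest score near a member, 147, belonged to a site over the start of *HSPB2-C11orf52* and an exon of *CRYAB*.

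Stretches of 100 bases are shown for a site with a receptor motif in an intron of *DNAJC13*, and for the sites next to *HSPA13* and *HSPB1*, all in hg19 on the plus strand. Capitals mark the core of the steroid receptor element, ACANNNTGT, which is its own complement, and the element's AGAACA unit or its complement TGTTCT. They were read from chr3:132235115-132235214, chr21:15755876-15755975 and chr7:75928966-75929065.
DNAJC13 intron: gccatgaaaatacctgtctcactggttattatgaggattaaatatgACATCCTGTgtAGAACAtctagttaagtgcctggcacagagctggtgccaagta
Before HSPA13: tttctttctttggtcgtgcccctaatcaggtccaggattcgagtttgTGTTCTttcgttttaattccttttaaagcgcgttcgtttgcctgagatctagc
Before HSPB1: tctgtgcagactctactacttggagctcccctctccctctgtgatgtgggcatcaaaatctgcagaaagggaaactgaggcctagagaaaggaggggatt
The *DNAJC13* stretch holds both the core and the unit, the *HSPA13* stretch holds the unit only and the *HSPB1* stretch neither. ACANNNTGT was found in 4 of the 63 sites near members (6.35%), in 11.6% of all sites and in 11.4% of windows of the same width 5 kb away from them. For AGAACA or TGTTCT the shares were 17.5%, 25.2% and 27.4%. The core was thus about as frequent in the sites as beside them, and the few matches near members were not tested against the other sites. Before the starts of the members, ACANNNTGT was found in 0 of the 52 promoters and in 4.61% of all promoters.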

How the data were processed

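The authors aligned 50-nt paired reads of the RNA-seq libraries with TopHat to the hg19 assembly, dropped those that aligned to more than 1 place, and deposited Cufflinks FPKM values with an interval, a status and a coverage signal for each of 41138 RefSeq transcripts. For ChIP-seq they aligned with Bowtie, called sites with MACS against input, and deposited 11181 positions with a score of 50 or more. The input library was not analysed here. Conditions came from the labels, and dose and times from the study's methods.

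Transcripts were summed per gene symbol, genes with an FPKM of 1 in either library were retained, and log2 ratios used a pseudocount of 1 and a threshold of 1.5-fold. FPKM are no counts, and with 1 library per treatment no test was run. Coverage times length over 50 nt gave the depth. Site positions were annotated with GENCODE on GRCh37 (hg19), and windows of 50 nt were counted over its chromosomes without the haplotype contigs. Promoters came from RefSeq (GRCh38.p14) and were found for 69 of the 86 members. Gene types also came from RefSeq, where all 86 members matched. The members and lists were chosen with earlier results of these data known. Named were all members past 1.5-fold, the 3 highest of each class in EtOH, those with a site inside, and those said to be singled out. A receptor and the sequence of 1 site are not reported here. The calling step was tested on simulated data. Alternatives were other pseudocounts, filters, thresholds, scalings, transcript choices, distances and scores. Python 3.11.15, pandas 2.3.3, numpy 2.4.6, pysam 0.24.0 and matplotlib 3.10.9 were used.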

Additional observations from a re-analysis of the deposited data

How the results depend on the processing

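With 1 library per treatment no replicate could be left out and no spread could be estimated, and the deposited intervals of the FPKM were not used as errors because 40 of 65 retained member transcripts lie outside them in 1 library or the other. No paired analysis was possible because there is 1 library per treatment. At 2-fold, 1 member (*DNAJB4*) was higher in place of 5, with the same 2 lower. With a pseudocount of 0.1, *DNAJB2* joined the lower members at −0.59, which gave 3 in place of 2. A filter of FPKM 5 kept 42 members, of which 4 were higher, without *HSPA2*. Other alternatives, rescaling to a median log2 ratio of 0 (a shift of 0.01), no filter on FPKM, the highest transcript, transcripts of 200 nt or more with OK status and, added after seeing the data, the midpoint of the interval, left the same 5 higher and 2 lower members. The log2 ratios of 32 named members were recomputed with the pseudocount of 0.1, the rescaling, the highest transcript, the longer transcripts and the midpoint, and 159 of these 160 values stayed on their side of 1.5-fold. Part of this count was fixed in advance. All member transcripts are longer than 200 nt with OK status, so that filter removed none and its values equal the main ones. The highest transcript could differ only for members with more than 1 transcript above 0. The same holds for the class sums. No class sum passed 1.5-fold, in 55 values. HSPA and HSPB changed sign without their highest gene (0.03 and 0.20), the latter with most of the rest in *HSPB11*. The sums of HSP90, DNAJA and HSPD/HSPE, all near 0, changed sign under at least 1 alternative. The 30 members with a PR binding site became 17 at 10 kb, 36 at 100 kb, 7 inside the locus, 25 from transcript starts and 7 with sites scoring 100 or more. Leaving out *HSPA1A* and *HSPA1B*, chosen after seeing the data, left 30 of 57.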

Other observations

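Grouped by compartment, the chaperones of the endoplasmic reticulum and the mitochondrion were nearly level. Of 8 retained members of the endoplasmic reticulum, *DNAJC3* alone was higher, none was lower, and the median log2 change was 0.01. *DNAJB9*, singled out after its values were seen and known as the J protein that binds to the stress sensor of that compartment, stood at FPKM values of 6.77 (EtOH) and 5.22 (R5020) (−0.32). None of 8 mitochondrial members passed 1.5-fold, with a median of 0.04. Of 12 cytosolic and nuclear members listed as responding to heat, which include the largely constitutive *HSPA8*, 10 were retained, with 1 higher (*DNAJB4*), 2 lower (*HSPA1A* and *HSPA1B*) and a median of −0.23, or −0.11 without *HSPA8*. The lists overlap with the classes described above and were chosen with results of these data known.

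Beside shares of 7.67% higher and 4.14% lower among all retained genes, 3 lists of chaperones outside the symbol rule held no gene past the threshold. The HSP90 partner list held 1 of 16 (*FKBP5*) and the HSP70 partner list 4 of 12 (*BAG3*, *BAG5*, *GRPEL1* and *GRPEL2*). All these lists are small, and no difference between them was tested. Of 14 genes of the cytosolic chaperonin (TRiC/CCT) and prefoldin, which fold actin and tubulin, none passed 1.5-fold, with a median of 0.09 and a range from *PFDN5* at 25.4 in EtOH and 20.1 in R5020 (−0.33) to *CCT5* at 25.8 and 32.3 (0.31). None of 11 other organelle chaperones passed it either, and *P4HB*, a disulfide isomerase, was at 170 and 169. Of 7 J-domain, HSP90 and small heat shock proteins with other symbols, 5 were retained and none passed it. *CRYAB*, a small heat shock protein, was at 2.72 and 3.64 (0.32), and *TRAP1*, the mitochondrial HSP90, at 15.4 and 15.9 (0.04).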
